A study of Sus scrofa with 6 samples.

Results

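IL27RA, IL1R1 and IL4R are cytokine receptor genes, and their transcripts were followed here in pig aortic valve leaflets under normal and raised cyclic pressure. The genes asked for were IL27RA, IL6ST, IL1R1 and IL4R, and a probe set was taken when the platform annotation gave it 1 symbol and that symbol was one of the 4. This found 3 of the 4 genes, with 5 of 23999 probe sets: 1 for IL27RA, 2 for IL1R1 and 2 for IL4R. IL6ST, the gp130 chain shared by IL-6 type receptors, was the sole symbol of 0 probe sets in the annotation used and was not analysed here. The genes were chosen by their log2 differences between these same groups. Those differences are therefore given as a description, with no test.

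The tissue was aortic valve leaflet from adult female pigs, with the endothelium taken off by collagenase and an overnight culture in serum-containing medium. The normotensive group of 3 samples then had 24 h of pressure cycling between 0 and 80 mmHg, and the hypertensive group of 3 samples had the same time between 0 and 120 mmHg, both at 1 Hz in a bioreactor. All samples therefore share the stripping, the medium, the serum and the sex of the animals. The labels call the replicates biological but leave it unsettled whether each had its own animal; p-values thus cover only the spread among these samples, which may be technical. The question put to these genes was whether the leaflet holds transcripts for sensing cytokines, and whether their level differed with pressure.

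A cytokine acts only on a cell that carries its receptor. IL27RA pairs with gp130 to receive interleukin-27 and signals through JAK kinases to STAT factors. IL4R binds interleukin-4 and pairs with the common gamma chain IL2RG or with IL13RA1, in the latter case also serving interleukin-13, and signals mainly to STAT6. IL1R1 belongs to another family: it has immunoglobulin-like domains outside the cell and a TIR domain inside, binds IL-1 alpha and IL-1 beta, and signals through MYD88 and IRAK kinases to NF-kB. Interstitial cells, the fibroblast-like cells of the leaflet, carry receptors of this kind, and so do leukocytes and endothelial cells.

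The arrays were not alike. Over 14399 kept probe sets, normotensive arrays correlated with each other at 0.952 to 0.978 and hypertensive arrays at 0.847 to 0.926. The mean correlation with the normotensive arrays was 0.950 for hypertensive replicate 2, 0.895 for replicate 3 and 0.817 for replicate 1. For the GAPDH control, the signal at the 3′ end over that at the 5′ end, a measure of RNA integrity, was 2.11 to 7.52 on the normotensive and 2.91 to 6.04 on the hypertensive arrays. For the actin control the same ratio was far higher, at 41.1 to 109 and 52.5 to 81.7. For the EF1A control it was at most 1.65 on any array. The ratio thus depended on the control read, and its part in the receptor values was not tested. By limma, an adjusted p under 0.05 was reached by 0 of the 14399 probe sets, and by 3505 when hypertensive replicate 2 was left out. An unadjusted p under 0.05 was found for 1064 with higher signal (7.39%) and 1372 with lower signal (9.53%). With 3 arrays against 3 an exact permutation test cannot give a p under 0.1, so none was run. In the sentences that follow, a log2 difference is hypertensive minus normotensive with the standard error (SE) of the limma fit. A fold is the ratio of geometric means. Signals below 48.5, the level of the filter on low values, are treated as too low to rank.

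IL27RA transcript was present under both pressures and had 2.84 times the signal at 0 to 120 mmHg. On normotensive replicates 1, 2 and 3 the signal was 1271, 1355 and 1236, and on the hypertensive replicates it was 5014, 3724 and 2615. The normotensive arrays lay close together, at 1287 ± 61.0 (SD, n = 3), and the hypertensive arrays were spread, at 3784 ± 1201 (SD, n = 3). The groups did not overlap: the lowest hypertensive array was at 1.93 times the highest normotensive one. The fold was 2.84, a log2 difference of 1.51 (SE 0.28), and 5.35% of 5271 genes had a larger difference in either direction. It was 2.43 without hypertensive replicate 1 and 3.36 without replicate 3. In tissue RNA, a change in the number of cells of a type and a change in RNA per cell cannot be told apart. This holds for every gene described here, higher or lower.

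IL4R was measured by a bright and a very dim probe set. On the bright one, the normotensive signals were 1322, 1343 and 925 and the hypertensive signals 6188, 1687 and 2719. Hypertensive replicate 1 stood far above its group and replicate 2 was at only 1.26 times the highest normotensive array, without overlap of the groups. The group means were 1197 ± 236 and 3532 ± 2358 (SD, n = 3 each). The fold was 2.59 (log2 1.37, SE 0.45), and it was 1.82 without hypertensive replicate 1 and 3.48 without replicate 2. On the dim one, the signals were 3.995, 12.9 and 3.66 under normotensive and 17.0, 7.53 and 11.4 under hypertensive pressure. All of these lay below the filter level and the groups overlapped, so this probe set gives neither a level nor a fold, and the IL4R values rest on 1 probe set.

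The 2 probe sets of IL1R1 differed in opposite directions. On the bright one, the normotensive signals were 695, 625 and 670.5 and the hypertensive signals 1009.97, 834 and 923. The groups did not overlap, and the gap between them was small, with the lowest hypertensive array at 1.20 times the highest normotensive one. The means were 664 ± 35.5 and 922 ± 88.2 (SD, n = 3 each), with a fold of 1.39 (log2 0.47, SE 0.25). Of the 5271 genes, 43.0% had a larger difference in either direction. On the dim one, the signals were 69.1, 68.8 and 66.9 under normotensive and 34.4, 48.4 and 46.7 under hypertensive pressure, again without overlap. Every hypertensive array of this probe set was below the filter level, so the signal was at least 1.41-fold lower, with a fitted log2 difference of -0.68 (SE 0.33). The mean of both probe sets was a log2 difference of -0.10, so the direction for IL1R1 depends on which probe set is read. Which part of the transcript each of them reads was not analysed here.

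**Figure D1:**
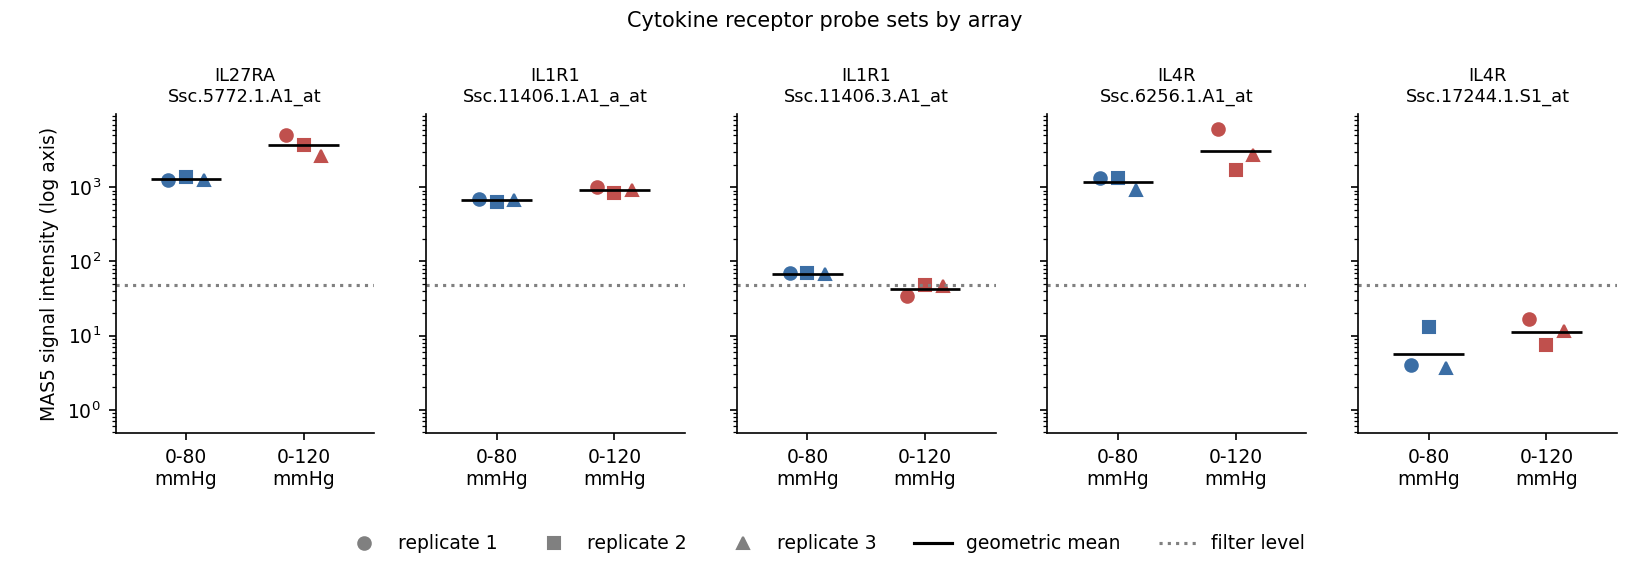
MAS5 signal (log axis) of the 5 receptor probe sets on each array, by pressure cycle; each point is an array, its shape the replicate number, black bars are geometric means (n = 3) and the dotted line is the filter level of 48.5. The hypertensive points of IL27RA, bright IL1R1 and bright IL4R lie above all normotensive points, those of dim IL1R1 lie below, and those of dim IL4R are all under the dotted line.

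Of the 5 probe sets 4 passed the filter, and in each of the 4 the groups did not overlap, 3 higher and 1 lower. Such a gap between the groups, in either direction, was found in 22.5% of all kept probe sets; the genes were chosen from this contrast, so nothing is read from the count. Hypertensive replicate 1 was the extreme array in all 4. The array nearest to the normotensive group was replicate 3 for IL27RA and replicate 2 for the other 3 probe sets. The direction of each of the 4 stayed the same with any single array left out.

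**Figure D2:**
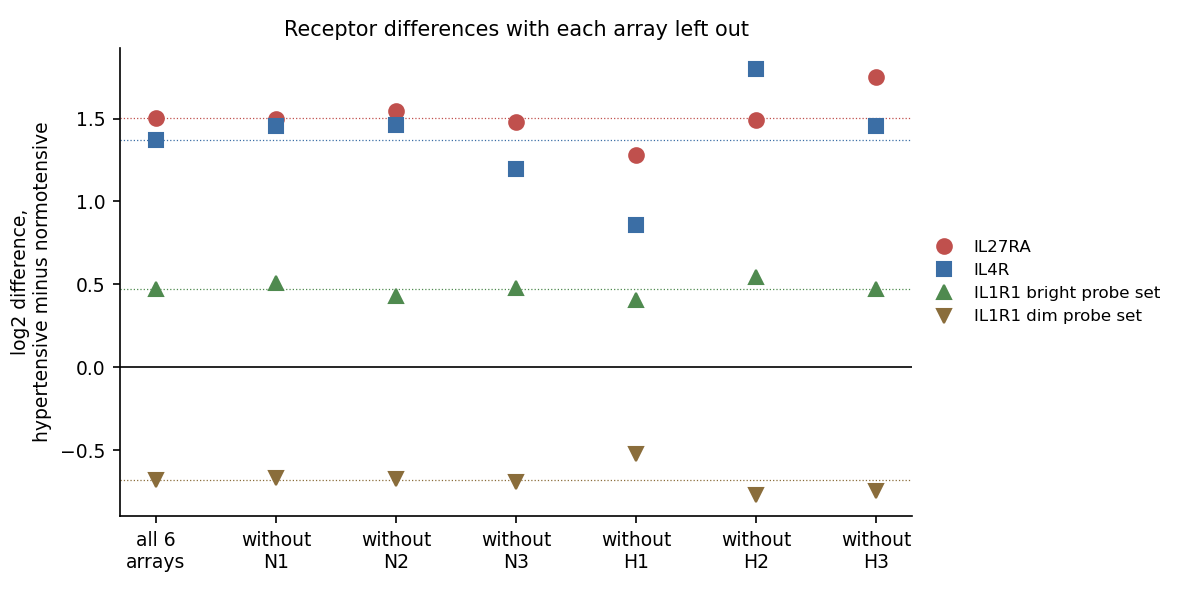
Log2 difference (hypertensive minus normotensive) of the 4 kept receptor probe sets with all 6 arrays and with each array left out (N1 to N3 normotensive, H1 to H3 hypertensive replicates); dotted lines mark the values with all arrays. IL4R moves most, from 1.37 to 0.86 without H1 and to 1.80 without H2, and no point crosses 0.

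The ligands of IL1R1 were low under normotensive pressure and higher on every hypertensive array. IL1B had normotensive signals of 174, 247 and 137 and hypertensive signals of 8695, 524 and 612. IL1A had signals of 100.3, 132 and 120.0 and of 2831, 226 and 449.5. Hypertensive replicate 1 exceeded the other arrays by far for both cytokines. The folds were 7.80 for IL1B and 5.66 for IL1A, and neither passed (limma, adjusted p = 0.262 and 0.259). Leaving out hypertensive replicate 1 gave 3.14 and 2.73, leaving out replicate 2 gave 12.8 and 9.67, and IL1B was at 11.8 with replicate 3 left out. A further probe set of each had the same direction.

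The ligands of the IL-6 and IL-4 families were mostly too low to rank. IL6 was at 81.5, 101 and 29.0 under normotensive and at 22566, 297 and 2104 under hypertensive pressure. Normotensive replicate 3 was under the filter level, so the size of the change is uncertain. Its groups did not overlap, and hypertensive replicate 1 was far above replicate 2. Its fold of 38.9 did not pass (limma, adjusted p = 0.235) and came to 12.7 when hypertensive replicate 1 was left out and 111 when replicate 2 was, and to 19.9 with a pseudocount of 64. IL6R, the chain that captures IL-6 for gp130, lay between 1.40 and 16.4 on all 6 arrays, below the filter level. LIF, a further gp130 ligand, reached 544 on hypertensive replicate 1 and was at 31.7 or below on the other 5 arrays. IL4 and IL13, the ligands of IL4R, were at 7.62 or below on every array. IL27 and EBI3, the subunits of interleukin-27, had 0 probe sets with 1 symbol and were not analysed here. Of the 27 ligands in the lists, 10 had a probe set and 4 a kept one, of which 0 passed; 3 had an unadjusted p under 0.05, all higher, against 6.85% of all genes higher and 10.2% lower.

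Among the partner chains, only IL13RA1 and IL11RA passed the filter. Both had overlapping groups, and the lower mean of IL13RA1 rested on hypertensive replicate 1. IL13RA1, the partner of IL4R for interleukin-13, was at 140, 115 and 112 under normotensive and at 7.52, 187 and 91.1 under hypertensive pressure. The value of 7.52 lay far under the filter level, so the size of the fitted log2 difference of -1.27 (SE 1.02) is uncertain: it was -0.40 with a pseudocount of 64, 0.10 without hypertensive replicate 1 and -2.22 without replicate 2. The groups overlapped. IL2RG, the common gamma chain, lay between 25.9 and 73.1 and did not pass the filter. IL11RA, which pairs with gp130 for interleukin-11, had a log2 difference of -0.57 (SE 0.36) with overlapping groups. Neither IL13RA1 nor IL11RA passed (limma, adjusted p = 0.511 and 0.404).

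Receptors of other cytokine families included several with more signal at the higher pressure. The interferon receptor chains IFNAR2 and IFNGR1 were at 2.22 and 1.56 times the normotensive signal and the TNF receptor TNFRSF1A at 2.29 times, each without overlap of the groups. TNFRSF1A was at 2339, 1836 and 2168 under normotensive and at 6186, 3757 and 4819 under hypertensive pressure. IL18BP, a secreted decoy that binds interleukin-18, was at 7.09 times, and at 4.31 times without hypertensive replicate 1. GHR, the growth hormone receptor, named after its values were seen, was at 129 and 41.7 (geometric means) with overlapping groups. Hypertensive replicates 1 and 3, at 24.9 and 24.5, were too low to rank, which leaves the amount of the decrease open. The fit gave 3.10 times lower, and 1.72 times with a pseudocount of 64. Without hypertensive replicate 2 it gave 5.24 times, with only those low values on the hypertensive side. Of the 62 receptor chains and decoys in the lists other than the genes asked for, 21 had a probe set and 13 a kept one. Of these 13, 0 passed (limma, adjusted p of 0.187 or more), 4 had an unadjusted p under 0.05 with higher signal and 1, GHR, with lower, against 6.85% and 10.2% of all genes. The median log2 difference was 0.30, against -0.07 over all 5271 genes.

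The JAK kinases that carry these signals had log2 differences near 0 or slightly below it, while several STAT factors had more signal. JAK1, a kinase that IL4R and the gp130 family use, had a log2 difference of 0.09 (SE 0.17), which was -0.01 with quantile normalization. JAK2 was at -0.18 (SE 0.26), with a further probe set of the opposite sign, and TYK2 at -0.37 (SE 0.25), without overlap of the groups (limma, adjusted p = 0.441). STAT3 was at 2296, 1982 and 2077 under normotensive and at 4042, 2865 and 2994 under hypertensive pressure, without overlap and with a fold of 1.54 (limma, adjusted p = 0.270). STAT5A and STAT2 were at 1.99 and 2.44 times without overlap, and a dim further probe set of STAT5A had the opposite sign. STAT6, the factor of IL4R signalling, was at 1.41 times with overlapping groups. STAT5B, named after its values were seen, had a log2 difference of -0.66 (SE 0.51) with overlapping groups. Its signals were 593, 740 and 506 under normotensive and 230, 905 and 272 under hypertensive pressure. On the IL-1 side, the adaptor MYD88 was at 1.57 times and the kinase IRAK1 at 1.23 times, both with overlapping groups, and IRAK1 was at 0.997 times without hypertensive replicate 3. MAP3K7, the kinase TAK1, had a log2 difference of -0.68 (SE 0.31) without overlap, while a further probe set overlapped. TOLLIP, an inhibitor of IL-1 receptor signalling that was named after its values were seen, was at -1.04 (SE 0.41) with overlapping groups. Of 27 transducers and adaptors 15 had a kept probe set and 0 passed; 3 had an unadjusted p under 0.05 with higher and 1 with lower signal, against 6.85% and 10.2% of all genes.

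The feedback inhibitors and the receptor sheddase had higher means in all 7 genes with a kept probe set, of 17 in the list, where 45.0% of all genes had higher means. SOCS6, a member of the suppressor family, was at 2.18 times and the phosphatases PTPN2 and PTPN1, which act on JAK and STAT proteins, at 1.52 and 1.56 times, each without overlap, although the groups overlapped in a further kept probe set of each phosphatase. ADAM17, the protease that releases soluble IL-6 and TNF receptors from cells, was at 1.62 times, and in its 3 kept probe sets the hypertensive arrays lay above all normotensive ones. SOCS1, the inhibitor induced by interferon and IL-4 type signals, was at 189 on hypertensive replicate 1 and between 51.5 and 76.4 on the other arrays. Its log2 difference of 0.53 was -0.03 without that array. SOCS3, the inhibitor that binds gp130, was at 51.0 on the same array and at 13.9 or below elsewhere. Of the 7 genes, 0 passed (limma, adjusted p of 0.267 or more) and 3 had an unadjusted p under 0.05 with higher signal, against 6.85% of all genes.

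Genes known to respond to these receptors had higher signal most often among the targets of IL-1 and NF-kB. All 12 with a kept probe set had higher means, 11 of them without overlap (over all genes, 9.28% were higher and 12.6% lower without overlap), and the median log2 difference was 2.19. NFKBIA, the inhibitor of NF-kB, was at 4.54 times, the chemokine CXCL8 at 6.61 times and the adhesion molecule ICAM1 at 4.07 times. MMP3, a matrix protease, was below the filter level on all normotensive arrays and at least 67.6-fold higher, a bound of 32.6 without hypertensive replicate 1 and 137 without replicate 2. Of 9 targets of IL-6 and STAT3 6 had higher means, with CEBPB at 2.36 times and TIMP1 at 1.99 times. VEGFA, the vascular growth factor of the same list, named after its values were seen, was 2.65 times lower with overlapping groups, and 4.53 times when hypertensive replicate 2 was left out or 1.74 times when replicate 3 was. All 6 targets of IL-27 had higher means, among them the interferon regulatory factors IRF1 and IRF8 at 6.33 and 2.84 times and GBP2 at 4.52 times. CXCL9 was at 28.5, 27.6 and 52.1 under normotensive and at 394, 150.3 and 179 under hypertensive pressure. As 2 of its normotensive values were under the filter level, its fitted fold of 6.37 is uncertain and was 2.90 with a pseudocount of 64. Leaving out hypertensive replicate 1 gave 3.39 times for IRF1 and 2.76 for GBP2, and leaving out replicate 2 gave 10.5 and 6.78 times. Of 3 targets of IL-4 and STAT6, ARG1, arginase, was at 3.90 times and the mannose receptor MRC1, named after its values were seen, was at a log2 difference of -0.97 with overlapping groups, and at -0.08 without hypertensive replicate 1 and -1.61 without replicate 2. Of the 28 target genes with a kept probe set, 0 passed (limma, adjusted p of 0.115 or more), and 20 had an unadjusted p under 0.05 with higher and 1, VEGFA, with lower signal, against the same 6.85% and 10.2%. Many of these genes respond to several cytokines, and the lists were chosen with earlier results of these data known, so the counts are not support for any 1 receptor.

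**Figure D3:**
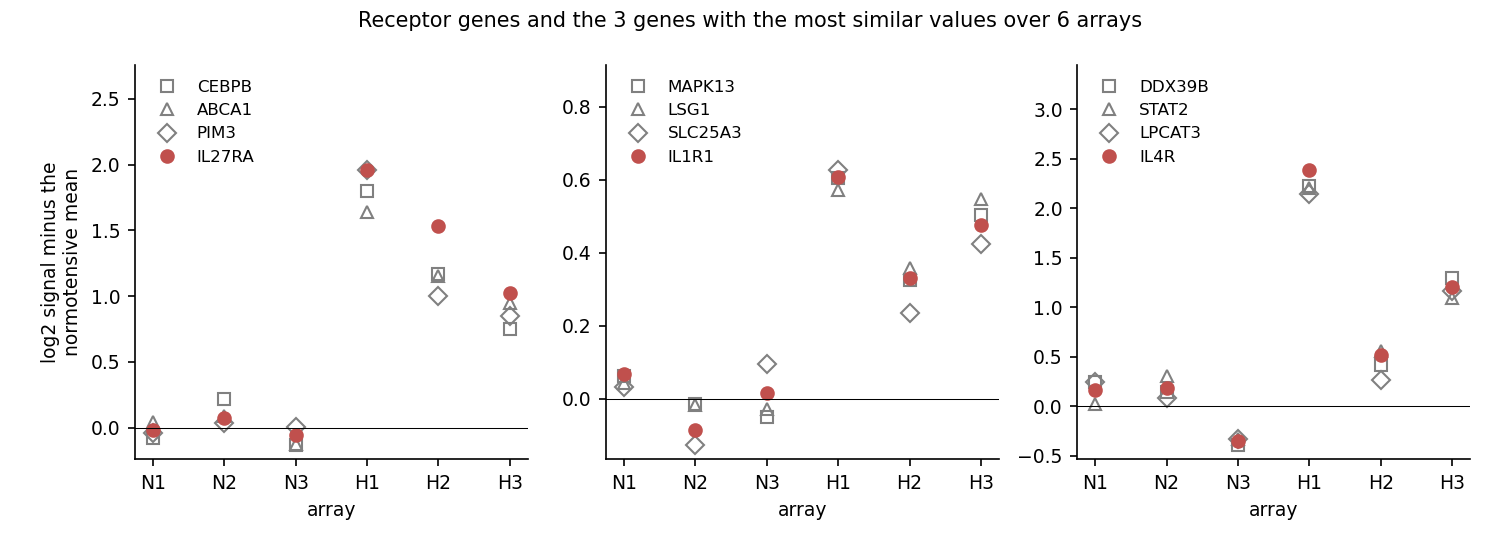
Log2 signal minus the normotensive mean on each array (N1 to N3 normotensive, H1 to H3 hypertensive replicates) for IL27RA, bright IL1R1 and bright IL4R in red, each with the 3 genes of most similar values in grey. IL27RA is high on H1 and H2, while IL4R and its neighbours peak on H1 and are lowest of the hypertensive arrays on H2.

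The order of the hypertensive arrays differed between receptors, with replicate 3 lowest for IL27RA and replicate 2 lowest for IL4R and bright IL1R1. Likeness was the root mean square difference in log2 signal over 6 arrays after each gene's own mean was taken off, among 5271 genes. IL27RA was most like CEBPB, ABCA1 and PIM3, with differences of 0.16, 0.16 and 0.20. IL4R was most like DDX39B, STAT2 and LPCAT3, at 0.09, 0.11 and 0.13. Bright IL1R1 was most like MAPK13, LSG1 and SLC25A3, at 0.04, 0.05 and 0.06. As a small difference between groups makes small distances likely, the 3 sets of distances do not rank the receptors.

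Markers of the cells that could carry these receptors were read on the same arrays, and their part in the receptor values was not tested. In the marker lists 0 genes passed (limma, adjusted p over all probe sets), and the markers named here were picked after their values were seen. The summed signal of 9 of 13 interstitial cell and fibroblast markers was 79898 to 83747 on the normotensive and 54582 to 69257 on the hypertensive arrays, and all 9 had lower means. For 7 of 12 macrophage and monocyte markers the sums overlapped, at 3218 to 6151 and 1328 to 4828, with 3 means higher and 4 lower. The bright probe set of the macrophage receptor CD163 was at geometric means of 1636 and 751 and a dim one at 65.3 and 114, while CD14 was at 40.7 and 73.8. The bright CD163 probe set was 2.18 times lower, and 1.31 times when hypertensive replicate 1 was left out or 3.36 times when replicate 2 was.

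The sum of 3 of 18 lymphocyte markers was 892 to 1201 and 430.4 to 718, and most of it was NCAM1, an adhesion molecule of natural killer cells that other tissues also express, at geometric means of 852 and 341. PTPRC, which encodes the leukocyte antigen CD45, was at 55.8, 127 and 66.0 and at 36.9, 52.6 and 15.3, where 2 of the 3 hypertensive values were under the filter level. CORO1A, an actin-binding protein of leukocytes, was higher without overlap, at geometric means of 71.4 and 123, and a further probe set had the opposite sign. The T cell genes CD2, CD3E and CD3G were below the filter level on all 6 arrays, and 0 of 10 neutrophil and mast cell markers passed the filter. For 6 of 13 endothelial markers the sums overlapped, at 2566 to 3155 and 2113 to 3965, with 2 means higher and 4 lower. Among those that did not pass the filter, 1 probe set of CDH5 was at 30.3, 12.3 and 40.5 and at 68.4, 115 and 84.9. SELE, the E-selectin gene, was at 1.11, 4.50 and 1.62 and at 443, 64.6 and 29.3. In both, the hypertensive values lay above the normotensive ones. All normotensive values, and hypertensive replicate 3 for SELE, were below the filter level, so no fold is given. A further CDH5 probe set, KDR, CLDN5 and TIE1 were below the filter level on all arrays, and NOS3 had overlapping groups. SELP, the P-selectin gene, was at geometric means of 128 and 872, or 6.79 times, without overlap of the groups. Leaving out hypertensive replicate 1 gave 4.19 times and leaving out replicate 3 gave 10.5 times. The endothelial transcription factor ERG was at 1504 and 963, lower without overlap, although the endothelium had been stripped, and VWF, the endothelial clotting factor, was at 26.6 or below on every array and probe set.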

How the data were processed

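The authors deposited linear signal intensities from the Affymetrix Porcine Genome Array, with 1 value for each probe set on each array. GCOS and MAS5 are named in the submitters' processing notes, and the version of each is not stated there. Per the labels, 70 ng of total RNA was amplified and 10 µg of cRNA hybridised. The 2% trimmed mean was 500.11 to 500.131 on all 6 arrays, so a shift common to most transcripts would not be seen. The number of arrays limits the precision, and detection calls were not used.

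Of 24123 probe sets 124 controls were left out of tests. Symbols came from the platform annotation, in which 10069 probe sets had 1 symbol, 198 several and 13732 none. The log2 of the intensity was used without a pseudocount, and probe sets with a mean at or above the 40th percentile (a signal of 48.5) were kept. The brightest kept probe set stood for a gene. The comparison used limma 3.58.1 under R 4.3.3 (lmFit, eBayes with an intensity trend, 2-sided, Benjamini-Hochberg over 14399 probe sets), which was tested on simulated data. The receptors, the 16 pathway and 5 marker lists and the tests were chosen with earlier results of these data known. Named genes were the receptors, their direct ligands, partners, transducers and inhibitors, up to 4 genes of smallest p without overlap per list, and the 3 most alike genes per receptor. Promoter and protein sequences were not used here.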

Additional observations from a re-analysis of the deposited data

How the results depend on the processing

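The alternatives were the replicate block, 2 other scalings, other filters, pseudocounts and variance models, and arrays left out. With the replicate block, 0 probe sets and 0 cytokine pathway genes passed and no call changed. Unadjusted counts over all probe sets were then 1183 higher and 1682 lower. Deviations of same-numbered arrays correlated at 0.06, 0.07 and 0.23. These values are low, yet 6 of 6 arrays correlated best with their own number, so whether the numbers mark pairs is not settled. With array weights, 5639 probe sets and 41 of the 64 kept pathway genes passed an adjusted p of 0.05, unadjusted counts were 3075 higher and 3955 lower over all probe sets (1064 and 1372 without weights) and 34 and 8 over pathway genes (31 and 3), and IL27RA was at 1.17. The weights were 0.195 for hypertensive replicate 2 and 6.96 for normotensive replicate 1. Dim IL1R1 was at -0.31 with a pseudocount of 64, and IL1R1 turned to -0.10 as the mean of its probe sets. Without replicate 3 of both groups, 385 and 416 probe sets and 19 and 0 pathway genes had an unadjusted p under 0.05. No filter gave 1474 higher probe sets, the 60th percentile 986 lower.

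With 1 array left out, called probe sets ran from 0 to 3505 (the highest without hypertensive replicate 2; 1 without normotensive replicate 2), unadjusted counts from 536 to 2449 higher and 603 to 3224 lower, pathway genes called from 0 to 34, and unadjusted pathway counts from 23 to 35 higher and 0 to 9 lower. IL27RA ran from 1.28 to 1.75, IL4R from 0.86 to 1.80, bright IL1R1 from 0.40 to 0.54 and dim IL1R1 from -0.77 to -0.52. Settings other than those given above kept the direction of these 4 probe sets. In them IL27RA was at 1.46 to 1.72, IL4R at 1.18 to 1.43, bright IL1R1 at 0.43 to 0.53 and dim IL1R1 at -0.76 to -0.52. Dim IL1R1 did not pass the 60th percentile filter and has no value there.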

Other observations

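In the pig reference annotation (Sscrofa11.1, used for gene order alone) IL1R1 lies beside other genes of its receptor family, and IL4R beside the interleukin-21 receptor gene IL21R. Among the 10 protein-coding genes nearest to each receptor, 5 on either side, 3 had a kept probe set for IL27RA, 2 for IL1R1 and 0 for IL4R. Beside IL27RA, PRKACA, a catalytic subunit of protein kinase A, had a log2 difference of -1.09 (SE 0.48), the transcription factor RFX1 one of -0.70 (SE 0.39) and DCAF15 one of 0.16 (SE 0.27), each with overlapping groups. Beside IL1R1, the kinase MAP4K4 was at -0.26 (SE 0.22) with overlapping groups, and RNF149 at 1.17 (SE 0.40) without overlap.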
